A study of Sus scrofa with 16 samples.

Results

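The 100 most abundant transcripts of pig ovary whose levels overlapped between the luteal and the follicular phase in low-fecundity sows were examined. They were taken from a table of 27370 mRNA transcripts in 16 ovarian RNA-seq libraries. The level of each transcript was deposited as FPKM, the fragments counted on a transcript scaled by its length and by the library's total. FPKM multiplied by the transcript length gives the weight of a transcript in its library, and this weight as a percentage of the library's sum is called its share here. Shares were averaged over the 16 libraries. The 13 transcripts in an ID range taken to be encoded by mitochondrial DNA were left out, so that "nuclear" refers to the genome that encodes a transcript and not to RNA found in the nucleus. Transcripts whose FPKM ranges in the low-fecundity groups did not overlap between phases were also left out, and the 100 highest of the rest were kept. The members were thus chosen by their FPKM level and by the overlap of LL and FL. Their level and the contrast of LL with FL are given as description, without a test. All 16 libraries entered the level, so the comparisons tested below are not free of this choice.

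The sows were unrelated Canadian Large White animals that had farrowed more than once, classed by litter size as of high or low fecundity. LH and LL were the luteal sows of high and low fecundity, slaughtered on day 14 after estrus. FH and FL were the follicular sows of high and low fecundity, slaughtered on day 20. Each group had 4 sows, and each sow gave 1 library, named here by group and replicate (LH1 to FL4). Per the study's methods all sows were reared alike, and the labels name no treatment. Fecundity was a class of the phenotype, not a genotype made by crossing or editing. P-values measure the spread between sows. The tissue was whole ovary, so that fewer cells of a type and less RNA per cell cannot be told apart.

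In the luteal phase of the cycle, corpora lutea formed from ovulated follicles secrete progesterone. In the follicular phase, corpora lutea have regressed and growing follicles secrete estradiol. Abundant mRNAs of most tissues include those of ribosomal proteins, translation factors and cytoskeleton, beside the products of the dominant cell types.

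The values behind the shares rested on few counted fragments. Whole fragments could be read back from the FPKM of low transcripts, and the libraries held 165000 to 305000 fragments counted on the table's transcripts. These are not the reads sequenced. The study reports far more clean reads, most of them aligned to the genome. Why so few fragments stand behind these values was not tested. The 97 kept transcripts of at least 500 nt had 1871 to 34885 fragments over the 16 libraries, with a median of 4569. Left-out mitochondrial IDs took 2.80% (LH2) to 21.9% (LL1) of a library, which moves the FPKM of all other transcripts. The strand setting of the counting was not given in the sources used here, and whether fragments of the transcripts' own strand or of the opposite strand were counted throughout the table was not tested. Every FPKM given here is the value of a named transcript in the table and carries this limit. Gene symbols were linked to 35 of the 100 transcripts through the study's own lists, and the other 65 are given by Ensembl transcript ID. Of the 35 symbols, 33 came from the list of predicted miRNA targets and 2 from that of differential transcripts. Named transcripts are thus not a random part of the table, and all counts over symbols carry this limit. Positions on the assembly behind the table (Sscrofa10.2) were not used here.

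Together the 100 transcripts took 18.4% ± 3.21 (SD, n = 16) of a library, from 13.7% in LL1 to 24.9% in FH3. The LH libraries gave 20.7%, 14.9%, 20.1% and 23.4%, in order of replicate number. In LL the shares were 13.7%, 16.6%, 15.5% and 21.4%. FH had 17.9%, 18.1%, 24.9% and 20.1%. Values of 19.1%, 16.2%, 15.97% and 15.5% were found in FL. The mean ± SD was 19.8% ± 3.58 for LH, 20.3% ± 3.25 for FH, 16.8% ± 3.29 for LL and 16.7% ± 1.62 for FL (SD, n = 4 each). The means of the high-fecundity groups were higher in both phases, but the ranges overlapped, and no test was made on this sum. With the mitochondrial IDs taken out of the total, the means were 20.4% ± 3.09 in LL, 21.9% ± 4.58 in LH, 17.9% ± 1.77 in FL and 21.6% ± 3.40 in FH (SD, n = 4 each).

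**Figure D1:**
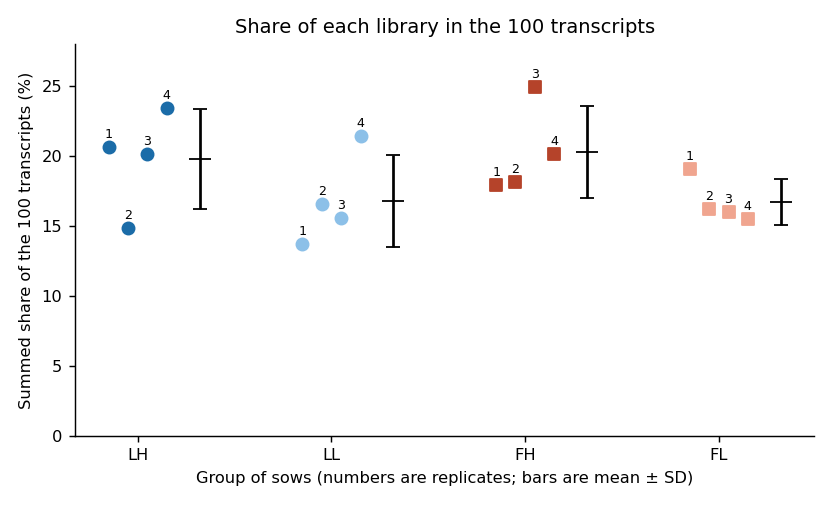
Summed share (%, vertical axis from 0) of the 100 transcripts in each library, by group of sows. Points are single libraries with their replicate numbers, and bars are the mean ± SD of 4. FH3 lies highest at 24.9% and LL1 lowest at 13.7%, and the 4 groups overlap.

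The first 10 transcripts held 6.46% of a library on average, and the mean share fell from 0.901% for the first to 0.0679% for the last. CAND2, a regulator of cullin ubiquitin ligases, was the most abundant of the 100. CAND2 (ENSSSCT00000012675, 6427 nt) had FPKM values of 1798, 1235, 2470.3 and 2277 in LH and of 968, 1326, 1296 and 1793 in LL. In FH they were 1338, 1430.3, 2163 and 2257, and in FL 1888, 1089, 1255 and 846. The 4 groups overlapped, and no comparison passed a threshold (log2 fold change 0.52 ± 0.35 (SE) for LH vs LL and 0.52 ± 0.27 (SE) for FH vs FL).

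BMP6, a ligand of the bone morphogenetic protein family that acts on granulosa cells, ranked 5th. BMP6 (ENSSSCT00000001120, 5753 nt) was measured at 1367, 1322, 949.7 and 2077 FPKM in LH and at 820.3, 629, 1046 and 1326 in LL. Values of 1293, 1363, 2145 and 1565 FPKM were found for BMP6 in FH and of 1759, 1429, 1124 and 701 in FL. LL2 and FL4 were the lowest libraries, and all groups overlapped.

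POLR2B, the second-largest subunit of RNA polymerase II, had the lowest coefficient of variation (CV, SD over mean of FPKM over 16 libraries) of the first 10, 23.9%. POLR2B (ENSSSCT00000023257, 7078 nt) had 965 ± 175 FPKM in LH, 1196 ± 217 in FH, 759 ± 184 in LL and 939 ± 162 in FL (SD, n = 4 each). FEZ2, which takes part in axon outgrowth, had 1346 ± 430.1 FPKM in LH, 1739 ± 621 in FH, 959 ± 117 in LL and 1029 ± 173 in FL (SD, n = 4 each). XPC, which recognises damaged DNA, had 961 ± 456, 918 ± 214, 665 ± 193 and 959 ± 313 FPKM in the same order (SD, n = 4 each). The ranges of LL and FH, groups that differ in both phase and fecundity, were apart for POLR2B and FEZ2, and the 4 groups overlapped for XPC. LL and FH were not a planned comparison, and the share of all transcripts with these groups apart was not counted. Nothing is read from it about POLR2B or FEZ2.

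The other 5 of the first 10 had no linked symbol. ENSSSCT00000006876 (4695 nt) ranked 2nd. It reached 4946 FPKM in LH4 against 1546 to 1678 in the other LH libraries, and 3486 FPKM in LL4. ENSSSCT00000024835 was the shortest of the 10, with 621 nt, and had the highest FPKM, from 8667 in LH2 to 20108 in LH3. ENSSSCT00000018459 lay between 992 (LL1) and 3567 (FH4) FPKM. ENSSSCT00000025589 and ENSSSCT00000027560 were both low in LH2, at 449 and 740.0 FPKM.

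**Figure D2:**
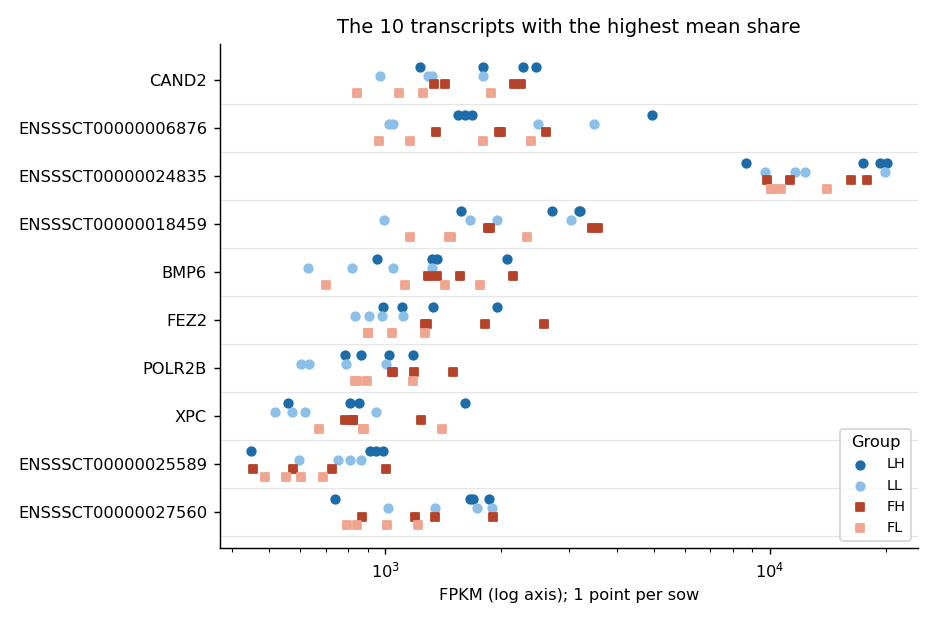
FPKM (log axis) of the 10 transcripts with the highest mean share, with 1 point per sow and 1 row of points per group. The 4 groups overlap for CAND2, BMP6 and ENSSSCT00000006876, and ENSSSCT00000024835 lies apart from the other 9 at 8667 FPKM or more.

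The 35 named transcripts took 7.33% of a library and the 65 without a symbol took 11.06%. By textbook roles, 8 encode factors of transcription, DNA repair and RNA processing. They are POLR2B, XPC, BRF2 (a subunit of an RNA polymerase III factor), INTS8 (a subunit of the Integrator complex), SKIV2L2 (a helicase of the RNA exosome), DDX39A (an mRNA export helicase), CCAR2 and the transcription factor NFE2L3. Their median FPKM ran from 118 for CCAR2 to 952 for POLR2B. Another 7 belong to the endoplasmic reticulum, the Golgi and glycosylation, and their median FPKM ran from 112 for COPG2, a coat protein of Golgi vesicles, to 528 for GORASP1, a Golgi stacking protein. This group also holds DDOST (a subunit of oligosaccharyltransferase), SYVN1 (a ubiquitin ligase of the endoplasmic reticulum), the protease BACE1, and the glycosyltransferases B4GALT3 and B3GAT2.

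Signalling and adhesion accounted for 8 named transcripts, with medians from 64.5 FPKM for the kinase WNK1 to 1324 for BMP6. Between them lay CRIM1 (a membrane protein that binds bone morphogenetic proteins), TSC2 (an inhibitor of mTORC1) and PPP2R5D (a regulatory subunit of protein phosphatase 2A). RASAL1 (a GTPase-activating protein that turns Ras off), RASD1 (a small GTPase) and ITGA2 (a collagen receptor subunit) also lay between them. Protein turnover and folding accounted for 3, which were CAND2, the proteasome ATPase PSMC5 and the chaperone HSP90AB1. The remaining 9 were FEZ2, ARMC10, the centrosome and cilium protein CEP290, MPND, ILVBL, PRR14L, PCYOX1 (a lysosomal enzyme that degrades prenylated cysteine), EPM2A (laforin, a phosphatase acting on glycogen) and LUZP1. These roles were assigned after the members were known, so no theme is drawn from their counts.

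Gene lists of set symbols were also read against the 100. Of all 3847 linked transcripts 35 were members, so few members would be found in any short list. None of the 6 linked transcripts in the list of ribosomal proteins was a member, nor any of 9 in that of translation factors, 11 in that of cytoskeletal genes or 10 in that of nuclear-encoded mitochondrial proteins. The list of extracellular matrix genes held 59 linked transcripts with ITGA2 as a member, that of chaperones 3 with HSP90AB1, and that of chromatin and RNA processing 32 with DDX39A. The list of lysosome and lipid genes held 2 and no member. These lists are short and do not hold every gene of their class, since PCYOX1, SKIV2L2 and INTS8 are members outside them. Nothing is read from these counts about the members.

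Some widely expressed genes outside the members were listed at low values or at 0, while others, such as POLR2B and HSP90AB1, were members. RPL3, a ribosomal protein, had a median of 5.29 FPKM and was listed at 0 in 5 libraries, RPL22 was listed at 0 in 10 and TUBA1C, a tubulin, in 7. VIM, an intermediate filament protein, had a median of 25.1 FPKM. RPL6, RPL13 and EIF4A1, a translation factor, had medians of 17.2, 19.1 and 22.2 FPKM and were at 0 in 3, 2 and 2 libraries. RPL35 was at 1506 FPKM in its highest library and at a median of 6.64. A listed 0 therefore cannot be read as a lack of expression in this table.

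The linked ovarian marker genes are given with the same limit. The 3 linked luteal and steroidogenic markers (SCARB1, PTGFR and FDXR) summed to between 0 and 38.5 FPKM per library. FOXL2, a granulosa marker, was listed at 0 in 11 libraries and reached 19.4 FPKM, and GDF9, an oocyte marker, was listed at 0 in 10 and reached 15.1 FPKM. The 3 linked fibroblast markers (COL1A2, COL3A1 and LUM) summed to 2.85 to 23.0 FPKM. DES (smooth muscle) reached 14.8 FPKM, PECAM1 (endothelium) 2.10, the 2 ALAS2 transcripts (blood) 6.54 together, and CD68 (immune cells) 73.3 in ENSSSCT00000019540. No theca marker was linked and no marker was among the 100, so the labelled tissue could not be checked against its defining transcripts.

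Length, detection and CV followed in part from the choice of high shares and of overlapping LL and FL, and are given as description. The members' median length was 4870 nt, against 1434 nt over the whole table. In all, 84 members had 3000 nt or more, as did 19.4% of all transcripts, and length entered the ranking through the share. Of the members, 97 were above 0 in all 16 libraries. Their CV had a median of 30.02%. The median was 136% over transcripts with 0.5 FPKM or more in at least 4 libraries. For the 121 transcripts at or above the last member's share that were left out for phase it was 42.1%. These 121 were left out because LL and FL lay apart, which itself widens their CV. Nothing is therefore read from that difference about the members.

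The members with a symbol mostly lay close to other genes, as did many other abundant transcripts. The table gives no positions, so neighbours were read from RefSeq's pig gene table on a later assembly (Sscrofa11.1), without regard to strand, which that table does not give. Of the 35 symbols, 26 (74.3%) overlapped another protein-coding gene and 32 (91.4%) overlapped one or lay within 1 kb of one. Among 3029 other linked symbols the shares were 22.1% and 40.4%. Among symbols with a transcript of 3000 nt or more, 24 of 32 members and 21.6% of 1365 others overlapped a protein-coding gene.

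The share of symbols with an overlapping neighbour also followed the level among other transcripts. It was 49.7% of 177 symbols with a mean share of 0.01% or more, 27.6% of 722 symbols with 0.001% to 0.01%, and 17.9% of 2130 symbols below. An overlap or a neighbour within 1 kb was found for 71.8%, 43.9% and 36.6% of these symbols, in the same order. The 177 symbols reach below the members' lowest mean share of 0.0679%, so they are not matched to the members in level. Among transcripts left out for phase, GYS1 and ITPKC also lay within 1 kb of a protein-coding gene, and KL did not. These counts are descriptions and were not tested. CAND2 lay within 1 kb of RPL32, a ribosomal protein gene. POLR2B overlapped IGFBP7, which encodes a secreted protein that binds insulin-like growth factors. NFE2L3 overlapped HNRNPA2B1 and PCYOX1 overlapped SNRPG, both of which encode RNA-binding proteins of the nucleus. HSP90AB1 overlapped SLC35B2, COPG2 overlapped MEST, SYVN1 overlapped MRPL49, and XPC overlapped LSM3 and TMEM43. FEZ2 and CRIM1, both among the 100, overlapped each other. BMP6, EPM2A and PRR14L had no protein-coding neighbour within 1 kb.

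Rows of the neighbouring genes themselves were mostly low where they could be linked. For 15 of 42 neighbours a row was linked, and the 15 rows that were not members had a median of their mean FPKM of 7.76, up to 164 for PLPP1, which overlaps SKIV2L2. SLC35B2 had a mean of 11.8 FPKM beside HSP90AB1, TMEM43 12.2 FPKM beside XPC, and MEA1 130 FPKM beside PPP2R5D. The libraries were made with a directional kit. With the strand setting unknown, reads of a member and of a gene that overlaps it on the other strand cannot be told apart, and the levels of the members named here carry this limit. Its part in the result was not tested.

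**Figure D3:**
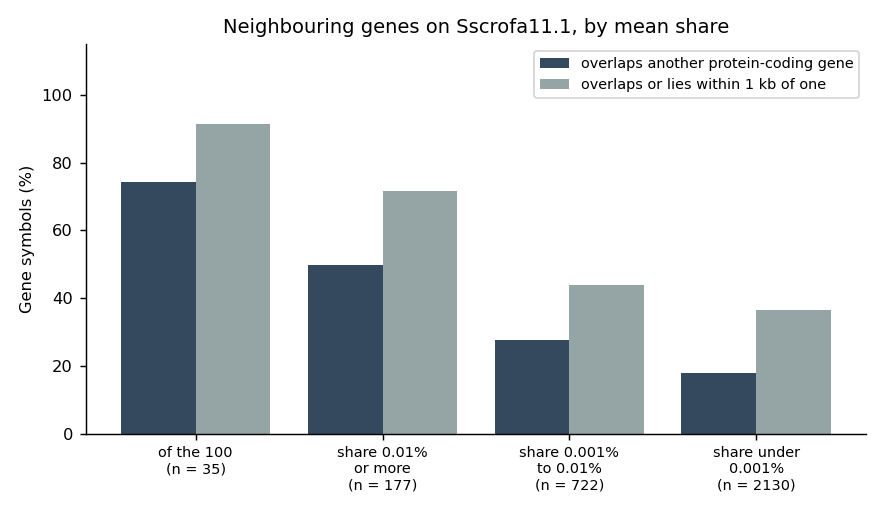
Percentage of gene symbols (vertical axis from 0) that overlap another protein-coding gene, or overlap or lie within 1 kb of one, on Sscrofa11.1. The bars fall from 74.3% and 91.4% for the 35 named members to 17.9% and 36.6% for 2130 symbols with a mean share under 0.001%.

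Steadiness between sows differed widely among the members. PCYOX1 was the steadiest, with a CV of 11.998% and values from 128 FPKM in FL4 to 189.7 in LH1. ENSSSCT00000024211 (CV 15.3%), BACE1 (15.7%), CEP290 (17.6%) and ENSSSCT00000026637 (18.1%) followed. BACE1, a protease that takes part in making amyloid beta, had 193 ± 39.5 FPKM in LH, 232 ± 14.0 in FH, 176 ± 23.7 in LL and 202 ± 21.0 in FL (SD, n = 4 each). In all, 50 members had a CV under 30% and 9 had one over 60%.

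At the other end, single libraries carried much of the spread. COPG2 was at 584 FPKM in FH1 and at 39.6, 77.7 and 72.6 FPKM in the other FH libraries, which gave a CV of 85.4%. ENSSSCT00000002175 was at 771 FPKM in FH3 and at 51.9 to 80.0 in the other FH libraries, with a CV of 107%. ENSSSCT00000032474 (CV 74.5%) was at 1128 and 1507 FPKM in LH3 and LH4 and at 175 to 558 in the other 14 libraries. ENSSSCT00000005058 has only 210 nt, shorter than the fragment length read from the values of every library but LH2 (208 to 268 nt), and was at 0 in LH2 and FH4 and at 12602 FPKM in LH4. Its level is therefore poorly defined.

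The members with the highest CV were present in 4 sows and at or near 0 in 12. ENSSSCT00000018111 (3776 nt, CV 182%) was at 1360.4 FPKM in LH1, 877 in LH4, 1231 in LL4 and 1007 in FH2. It did not exceed 4.45 FPKM elsewhere and was at 0 in 8 libraries. ENSSSCT00000007398 (880 nt, CV 184%) was at 4553, 2806, 4476 and 3216 FPKM in the same 4 libraries, did not exceed 8.37 FPKM elsewhere, and was at 0 in 10. The 4 sows came from 3 of the 4 groups, and none was an FL sow. A count of 0 allows up to 3 fragments, which here is 2.77 to 5.16 FPKM per library for ENSSSCT00000018111 and 15.04 to 29.1 FPKM for ENSSSCT00000007398, for counting error only. The r of their log2(FPKM + 1) over 16 libraries was 0.96, a description that rests on the 4 libraries.

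In the whole table, 9 transcripts had at least 1 FPKM in each of these 4 libraries and at least 10 times the highest value of the other 12. Besides both members they were 7 others. ENSSSCT00000033255 was at 1547 to 2259 FPKM in the 4 libraries and ENSSSCT00000017958 at 462 to 740, and both were at 0 in the other 12. The symbol ERBB2, a receptor tyrosine kinase, was linked to 2 of the 7, and ENSSSCT00000034730 was at 755 to 1203 FPKM and ENSSSCT00000034555 at 156 to 261. The 7 rows share no linked name beside ERBB2, and whether reads of near-identical copies were split between these rows was not tested.

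Many members varied together over the 16 libraries, and some varied in opposite directions. The median r of log2(FPKM + 1) over the 4950 pairs was 0.24, with 44 pairs over 0.9 and 14 under -0.9. Sets were cut at a mean r of 0.5. Within a library all members share its depth and its mitochondrial share, so these values are descriptions. Set 1 held 38 members (median r 0.66), among them CAND2, BRF2, GORASP1, DDOST, ARMC10, SYVN1, MPND, B3GAT2, PPP2R5D, HSP90AB1 and RASD1. Set 2 held 11 members (median r 0.84), of which EPM2A and PRR14L have a symbol. Set 3 held 10 members (median r 0.65), with BMP6, POLR2B, B4GALT3 and RASAL1.

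Sets 1 and 2 ran opposite to each other, with a median r of -0.67 between their members and -0.95 for EPM2A and ENSSSCT00000027560. EPM2A showed the pattern of set 2. EPM2A had 182, 578, 141 and 164 FPKM in LH and 310.2, 165, 186 and 138 in LL. In FH the values of EPM2A were 254, 379.6, 185 and 276 FPKM, and in FL 302, 414, 416 and 408. LH2 was the highest library of all, far above the other LH libraries, and LL1 was the highest of LL. Without LL1, FL and LL would not have overlapped for EPM2A.

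Set 2 as a whole took 0.744% ± 0.259 of a library in LL and 1.37% ± 0.185 in FL, with 0.972% ± 0.633 in LH and 0.980% ± 0.238 in FH (SD, n = 4 each). Its mean level in LH2 was 0.96 above the 16-library mean on the log2 scale, while in the other LH libraries it was between -0.67 and -0.44. Set 1 was at -0.67 in LH2 and between 0.26 and 0.35 in the other LH libraries. LH2 also had the lowest mitochondrial share of the series, 2.80%, and 8132 transcripts at 0.5 FPKM or more, the highest number in LH. Across the 16 libraries the level of set 2 had an r of -0.53 with the mitochondrial share and of 0.60 with the number of detected transcripts, for set 3 these were -0.76 and 0.61, and for set 1 they were 0.23 and -0.37. Their part in the sets was not tested.

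Outside the members, 915 transcripts had a mean share of at least 0.00679%. Of these, 52 had an r over 0.9 with the mean of set 2, and none had one with set 1 or set 3. The closest to set 2 were ENSSSCT00000003095 (r 0.97), ENSSSCT00000035676 and ENSSSCT00000031909, and TNFRSF19, a receptor of the tumour necrosis factor family, had an r of 0.95. Of these 4, only ENSSSCT00000035676 had overlapping LL and FL ranges.

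**Figure D4:**
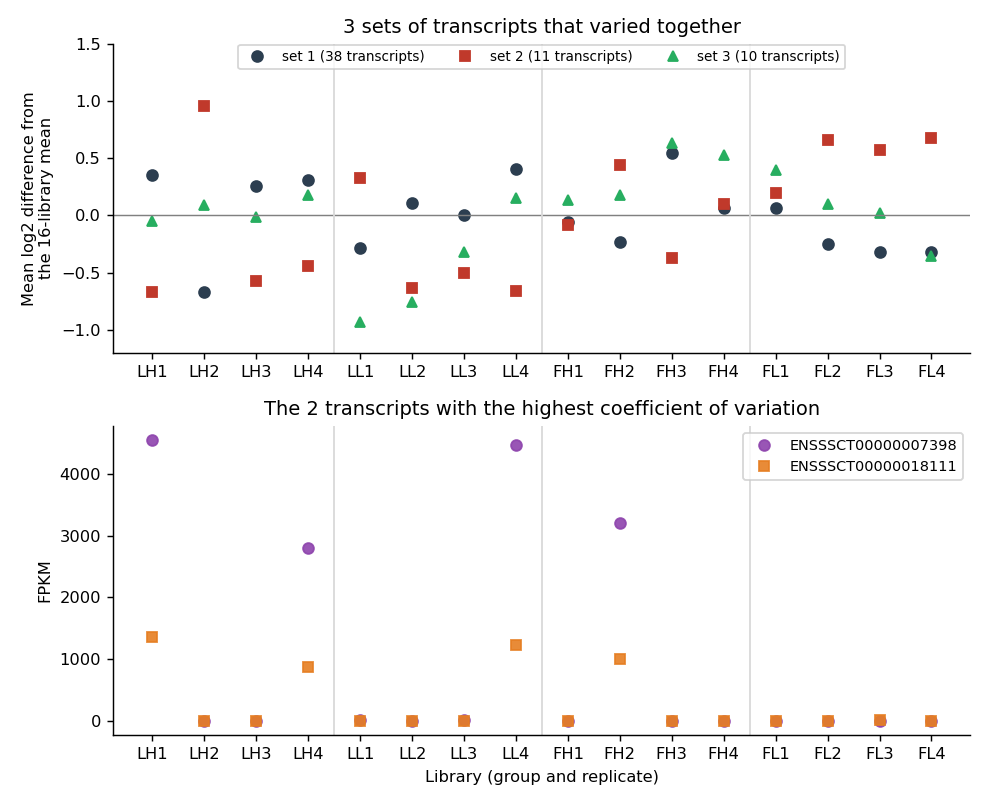
Upper panel: mean log2 difference from the 16-library mean for the 3 sets of members, by library (group and replicate). Set 2 is highest in LH2 (0.96) and above 0 in the 4 FL libraries, while set 1 is lowest in LH2 (-0.67). Lower panel: FPKM of ENSSSCT00000007398 and ENSSSCT00000018111 by library, present in LH1, LH4, LL4 and FH2 and at or near 0 in the other 12.

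The contrast of FL with LL fixed the membership and was not tested. In it, 17.3% of 6063 transcripts with 0.5 FPKM or more in at least 4 of the 8 libraries had ranges apart, and none of the 100 did, by construction. Mean log2(FPKM + 1) of FL minus LL had a median of -0.14 over the members and lay within 0.5 of 0 for 63 of them. It ran from -4.63 for ENSSSCT00000007398, which is at 0 in every FL library, to 1.14 for ENSSSCT00000015400. The library factors of median-ratio scaling were 0.750 to 0.934 in LL and 1.12 to 1.34 in FL. That scaling was not applied to this contrast, so its differences and its overlap hold for the deposited scale only. Overlap often hung on 1 library. Of the 100 members, 79 were still chosen without LL1, 83 without FL1 and 86 without LL4, and at least 94 without any other library.

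Leaving out transcripts with separate phases removed most of the abundant ones. Outside the mitochondrial range, 221 transcripts lay at or above the last member's share. On the deposited scale 121 of them (54.8%) had LL and FL apart. The 5 highest of these were GYS1 (muscle glycogen synthase, 4.88% of a library), ITPKC (an inositol trisphosphate kinase, 3.04%), KL (klotho, 2.75%), ENSSSCT00000031473 (1.94%) and ENSSSCT00000026140 (1.77%), each above every member. The 121 took 45.4% ± 2.92 of a library (SD, n = 16). In high-fecundity sows, 3 of the 221 had LH and FH apart, against 4.06% of 7116 transcripts, and this difference between fecundity classes was not tested. Without LH2 the number was 55, and without any other LH or FH library it was 3 to 15, whereas LL and FL were apart for 121 to 142 without any 1 library.

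At the end of the ranking the values ran on without a step. The last 3 members were ENSSSCT00000030455 (0.0683%), NFE2L3 (0.0682%) and ENSSSCT00000035139 (0.0679%). Just below were PPP1R13B (0.0669%), ENSSSCT00000032063 (0.0659%) and SLC15A3 (0.0655%).

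Fecundity in the luteal phase was compared between LH and LL with limma on log2(FPKM + 1). A transcript passed the study's criteria when its unadjusted p was under 0.05 and its level changed by at least 1 log2 unit. All 100 members were tested and 1 (INTS8) passed, against 7.72% of 5015 transcripts. The LL libraries had also entered the choice of members, by share and by overlap, so the members' rate is not free of that choice. Members are among the most abundant transcripts, and the rates were not matched for level here or in the comparisons below. A lower rate of calls is therefore not read as steadiness of the members. INTS8 was higher in LH, as were 5.4% of the 5015, and no member was among the 2.31% called lower. No member had an adjusted p under 0.05, which 1 of the 5015 transcripts had (0.0199%) and 18 had without the variance trend. Unadjusted p in limma was under 0.05 for 2 members (2%), against 7.96% of all tested. The members' median log2 fold change was 0.09, and that of all tested transcripts was 0.26. The latter fell to 0.15 with median-ratio scaling and to 0.01 with quantile normalization, and the members' median turned to -0.07 with median-ratio scaling and to -0.06 with scaling outside the mitochondrial IDs, so no direction is given for the members.

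INTS8, a subunit of the Integrator complex that cleaves small nuclear and other nascent RNAs, was the member that passed. INTS8 (ENSSSCT00000006687, 4564 nt) had 365, 453, 367 and 475 FPKM in LH and 73.8, 78.3, 116 and 265 in LL. Every LH library was higher than every LL library. The log2 fold change of INTS8 was 1.82 ± 0.42 (SE, adjusted p = 0.192 with limma and Benjamini-Hochberg adjustment), and the call held under each alternative tried. INTS8 overlaps CCNE2, the gene of cyclin E2, so the limit on overlapping genes applies to it.

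Ranges of LH and LL were apart for 2 members, INTS8 and PCYOX1, against 5.22% of 5002 transcripts. PCYOX1 had 189.7, 188, 175 and 165 FPKM in LH and 154, 145, 162 and 137 in LL. The groups did not overlap, but the difference was small (log2 fold change 0.27 ± 0.30 (SE), adjusted p = 0.836 with limma). NFE2L3 was the other member with an unadjusted p under 0.05, with 176, 191, 122 and 233 FPKM in LH and 435, 337, 383 and 186 in LL. Its groups overlapped through LL4, and its log2 fold change was -0.86 ± 0.37 (SE, adjusted p = 0.576 with limma), short of the threshold.

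In the follicular phase, 99 members were tested between FH and FL and 1 passed the study's threshold, against 4.41% of 8296 transcripts. It was higher in FH, as were 1.94% of the 8296, and no member was among the 2.47% called lower. ENSSSCT00000007398 was not tested because it passed the filter in too few libraries. The FL libraries had also entered the choice of members, by share and by overlap, so the members' rate is not free of that choice here either. No transcript of the 8296 had an adjusted p under 0.05 in limma (0.0%), 396 had an unadjusted p under 0.05, and 18 had an adjusted p under 0.05 without the variance trend. An unadjusted p under 0.05 was found for 7 members (7.07%), against 4.77% of all tested. The members' median log2 fold change was 0.22, with 78 members above 0 and 21 below, while the median of all tested transcripts was -0.03. Under the scaling alternatives the members' median lay between 0.21 and 0.28, but without FH3 it was 0.09, beside 0.04 for all tested transcripts.

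ENSSSCT00000005907 (5825 nt) was the member that passed. Its FPKM was 610.2, 536, 349 and 547 in FH and 605, 177, 271 and 111 in FL. FL1 lay as high as the FH libraries and the groups overlapped. The log2 fold change of ENSSSCT00000005907 was 1.06 ± 0.43 (SE, adjusted p = 0.914 with limma), and the call was lost without FH1, FH2, FH4, FL2 or FL4. FEZ2 (log2 fold change 0.71 ± 0.25 (SE)) and ENSSSCT00000018459 (0.71 ± 0.28) had an unadjusted p under 0.05 without reaching the fold threshold, each with an adjusted p of 0.914 from limma. ENSSSCT00000027809, a transcript of 286 nt in set 2, had the smallest p among the members, with a log2 fold change of -0.72 ± 0.23 (SE) and an adjusted p of 0.762 from limma. FH and FL ranges were apart for 1 member, ENSSSCT00000026509, with 421, 322, 425 and 319.8 FPKM in FH and 270.3, 213, 292 and 308 in FL, against 2.56% of 8283 transcripts.

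The phases were also compared in high-fecundity sows, whose overlap the choice of members had not used. Their levels did enter the mean share that ranked the transcripts. FH and LH were fitted within all 16 libraries, so the LL and FL values also entered the spread behind the p-values. All 100 members were tested and 2 passed the study's threshold, against 7.08% of 11027 transcripts. One was higher in FH, as were 5.99% of the 11027, and one lower, as were 1.1%. No member had an adjusted p under 0.05, which 2 of the 11027 had (0.0181%). Unadjusted p in limma was under 0.05 for 3 members (3%), against 7.3% of all tested. The members' median log2 fold change was 0.10 and that of all tested transcripts 0.35, which fell to 0.21 with median-ratio scaling and to 0.05 with quantile normalization. The members' median was -0.17 with median-ratio scaling, so no direction is given.

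ENSSSCT00000005907 had 109, 335, 147 and 191 FPKM in LH, below its 4 FH values. Its log2 fold change was 1.47 ± 0.45 (SE, adjusted p = 0.468 with limma) for FH vs LH. INTS8 had 303, 88.7, 251 and 156 FPKM in FH, below its 4 LH values, and its log2 fold change was -1.19 ± 0.48 (SE, adjusted p = 0.56 with limma). That call was lost without FH2. INTS8 in FL was at 91.6, 208, 80.2 and 52.1 FPKM, so that LH was the only group that lay above all others. ENSSSCT00000005907 and INTS8 were the only 2 members with LH and FH apart, against 4.06% of 7116 transcripts. Such counts hung on LH2, since among the 221 most abundant transcripts the number apart rose from 3 to 55 without it. FH vs LH shares its FH libraries with FH vs FL and its LH libraries with LH vs LL, so the calls of one transcript in 2 comparisons are not independent.

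The absolute log2 fold change was under 0.5 for 81 of 100 members in LH vs LL, 80 of 99 in FH vs FL and 86 of 100 in FH vs LH. Changes of less than 1 log2 unit could not pass the study's criteria, whatever their p. The median SE was 0.36, 0.29 and 0.34. With 4 sows a group, changes near that size would often not have reached an unadjusted p under 0.05 either. The widest estimates belonged to the members with libraries at 0. For ENSSSCT00000018111 the log2 fold change was 2.72 ± 2.65 (SE) in LH vs LL, and for ENSSSCT00000005058 it was -2.47 ± 2.23 (SE).

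**Figure D5:**
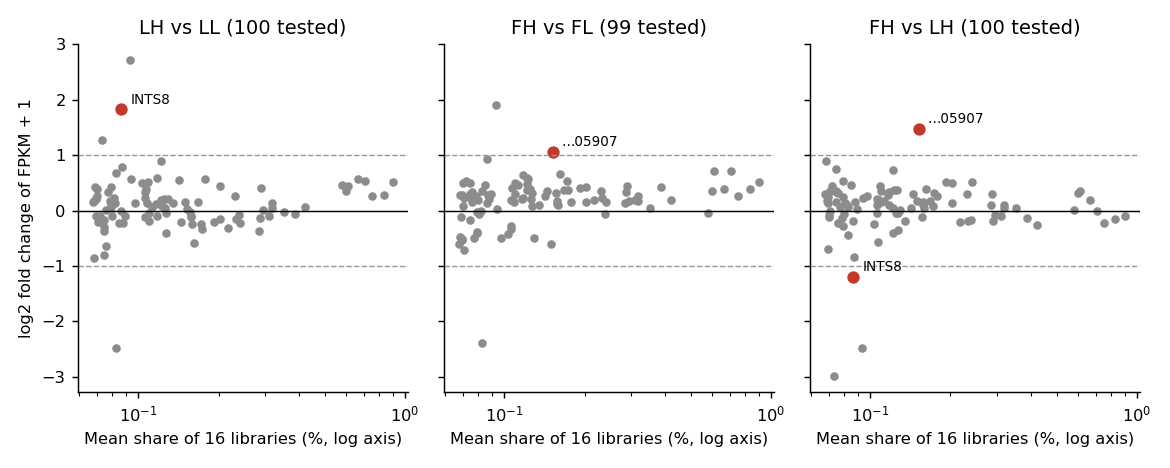
log2 fold change of FPKM + 1 (vertical axis) against the mean share (log axis) for the members tested in LH vs LL, FH vs FL and FH vs LH. Dashed lines mark a log2 fold change of 1 in either direction, and red points passed the study's threshold, which were INTS8 (1.82 and -1.19) and ENSSSCT00000005907 (1.06 and 1.47).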

How the data were processed

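Total RNA of 16 ovaries was depleted of ribosomal RNA, made into directional libraries and read as pairs. Per the study's methods, reads were mapped to Sscrofa10.2 and RSEM gave FPKM per transcript. The submitters' processing notes also name HISAT2 2.0.1 and StringTie 1.0.4. The authors deposited FPKM rounded to 2 decimals with transcript lengths. The strand setting is not given in the sources used here, and every sample column was mapped by its title.

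FPKM was used as deposited. Fragments per library were read from the step size of low values (92.9% to 94.9% of values whole within 0.05 of a fragment), and on 3 simulated libraries the error was at most 0.529%. Intervals and limits cover counting error only. limma 3.58.1 (R 4.3.3) was fitted to log2(FPKM + 1) with a variance trend, two-sided, with Benjamini-Hochberg adjustment over all transcripts tested, keeping those with at least 0.5 FPKM in 4 libraries of the fit. Folds on this scale understate low transcripts. On simulated data with 200 changed transcripts (4-fold and 8-fold), 93.9% of the changed transcripts were called in LH vs LL, 93.0% in FH vs FL and 92.5% in FH vs LH. Another 4.28%, 5.07% and 4.39% of the unchanged ones were also called. Of 122, 143 and 123 simulated transcripts with an adjusted p under 0.05 from limma, 16, 35 and 6 were unchanged. The changed transcripts were drawn from the better-counted ones, and the spread between libraries was set in advance. In LH vs LL 8379 simulated transcripts were tested, against 5015 in the data. These rates therefore do not carry over to the data.

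Symbols came from the study's lists pairing 3847 transcripts with names, whose values were not used. The members and all lists were chosen with earlier results of these data known. Named were the first 10 members, those past the threshold, those with a symbol, the 5 lowest and highest CVs, the last 3 members with the 3 below, and the 5 highest left out for phase. Others named were chosen after their values were seen. Alternatives were another pseudocount, other filters, scalings and fits, a replicate block, and each library left out.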

Additional observations from a re-analysis of the deposited data

Results flagged for a closer look

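Over 49 named members and 4 groups each, 18 of 196 groups (9.18%) held a library far from the other 3 by Dixon's test. Chance alone gives about 1 in 20 of independent groups, but this share cannot be read against it, since members were named in part for their high CV, vary together, and were chosen on LL and FL values. In LH, ENSSSCT00000006876 was at 4946 FPKM in LH4 (others 1546 to 1678). LH2 was low for ENSSSCT00000025589 at 449 FPKM (913 to 989), and high for EPM2A at 578 (141 to 182) and for ENSSSCT00000030455 at 370.2 (103 to 119.7). In LL, ENSSSCT00000035139 was at 1389 FPKM in LL1 (472 to 614), and LL4 held ENSSSCT00000018111 at 1231 and ENSSSCT00000007398 at 4476.

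In FH, FH3 was high for XPC at 1238 FPKM (786 to 824), for PPP2R5D at 438 (233 to 258) and for ENSSSCT00000002175 at 771 (51.9 to 80.0). COPG2 was at 583.5 FPKM in FH1, and FH2 held ENSSSCT00000018111 at 1007 and ENSSSCT00000007398 at 3216. In FL, FL1 was high for ENSSSCT00000024835 at 14058 FPKM (10088 to 10715) and low for EPM2A at 302 (408 to 416). FL2 was high for BACE1 at 234 FPKM (189 to 195), FL3 low for ENSSSCT00000026637 at 425 (542 to 559), and FL4 low for BRF2 at 565 (826 to 869).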

How the results depend on the processing

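The members' count of calls was small under every alternative tried. In LH vs LL it was 1, and 2 with median-ratio scaling or with scaling outside the mitochondrial IDs, and 1 to 4 with a library left out (4 without LL4, 3 without LH1, 2 without LH2). In FH vs FL it was 1, and 0 without the variance trend, and 0 to 1 with a library left out (0 without FH1, FH4 or FL4). In FH vs LH it was 2, and 3 with median-ratio scaling, 1 without the variance trend, and 2 to 5 with a library left out (5 without FH1, 4 without LH4). ENSSSCT00000005907 in FH vs FL was 1.06 and fell short of the threshold without the variance trend and without 5 single libraries, with a range of 0.70 to 1.51. INTS8 in FH vs LH lay between -1.44 and -0.85 with a library left out, and fell short without FH2 (-0.85) and without the variance trend. The cause was not tested. INTS8 in LH vs LL and ENSSSCT00000005907 in FH vs LH passed under every alternative.

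Over all transcripts the calls were 387, 366 and 781 in LH vs LL, FH vs FL and FH vs LH. They were 651 in LH vs LL and 651 in FH vs FL with all 16 libraries in the fit, and 387 in FH vs LH with the stricter filter and 424 with 8 libraries in it, where fewer transcripts were tested. With a library left out they ran from 303 to 553, 338 to 431 and 648 to 965. Quantile normalization moved the share of calls that were higher in the first group from 70% to 51% in LH vs LL and from 84.5% to 64.3% in FH vs LH.

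With the replicate number as a block, members called were 1, 1 and 2 and all calls 362, 346 and 794, so the block changed no call of a member. Same-numbered sows did not deviate together (r -0.07 to 0.06), and the sows share only a number.

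Without the requirement of overlap, or with overlap of LH and FH in place of LL and FL, 35 of the 100 members were kept and the 100 highest took 52.0%. Ranking by mean FPKM kept 67, by median share or effective length 95 each, and 79 to 100 were kept with a library left out, when the share was 16.5% to 18.6%. The small number of counted fragments limits the low transcripts, where 1 fragment is a large part of a value.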
